A study of Homo sapiens with 6 samples.

Results

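The snoRNA host transcripts GAS5, SNHG1, SNHG5, SNHG6, SNHG8, SNHG12, SNHG15, SNHG16, ZFAS1 and DANCR were followed in the ovarian cancer cell line HEY upon knockdown of the splicing factor PQBP1. They were chosen by gene symbol, and all 10 were found among the 32679 genes of the expression table. Short-read RNA-seq of poly(A)-selected RNA was available from 3 samples with a control hairpin (genotype NC, no treatment, called shNC) and 3 samples with a hairpin against PQBP1 (doxycycline at 1 µg/ml, called shPQBP1), all labelled day 3. The labels give doxycycline in the knockdown group alone, so the effects of the hairpin and of the drug cannot be told apart. The hairpins were delivered by lentivirus, and the cells were kept as puromycin-selected stable lines. Values are FPKM, a level scaled to transcript length and to the mapped fragments of the library, as deposited. The samples are described as biological triplicates.

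A snoRNA host gene carries small nucleolar RNAs in its introns. Box C/D snoRNAs guide 2′-O-methylation and box H/ACA snoRNAs guide pseudouridylation of ribosomal RNA and other RNAs, and both kinds are trimmed from the intron after splicing. The spliced exons that remain have short reading frames with early stop codons, and many are degraded during translation by nonsense-mediated decay, in which UPF1 and the SMG proteins act. Loss of decay therefore raises the level of several of these transcripts in other systems. PQBP1 is a component of the spliceosome, and the comparison asks whether host transcripts known for this sensitivity differ in level upon PQBP1 knockdown. Decay itself was not measured in these samples.

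All 10 genes are annotated as lncRNA genes (GENCODE 44, hg38). RefSeq places 36 snoRNAs within their spans, 28 of box C/D and 7 of box H/ACA. GAS5 holds 11, SNHG1 9, SNHG12 4, ZFAS1 and SNHG16 3 each, SNHG5 2, and SNHG6, SNHG8, SNHG15 and DANCR 1 each. Host genes of this kind often begin with a run of C and T, as do the mRNAs of ribosomal proteins. Among the 8 members with a promoter in the RefSeq table used (GRCh38.p14), 4 had a run of at least 7 C or T letters within 10 bases before and 20 bases from the start. Such a run stood in 19.3% of the 35116 promoters of the table, searched on the strand of the gene. The windows of SNHG1, SNHG12, SNHG16 and ZFAS1 are shown because they have the run. SNHG8, which stops at 6 letters, is shown because its groups, like those of ZFAS1, did not overlap, which holds for 34.4% of all tested genes. SNHG5 and DANCR also stop at 6 letters and GAS5 at 4. These windows follow RefSeq starts, which differ from the outermost starts of GENCODE 44. The GAS5 window (chr1:173869026-173869055, minus strand) lies wholly before the GENCODE start at 173868882. The other windows lie inside the GENCODE spans. Other starts were not searched, so the lack of a run holds for the RefSeq starts alone. The run could lie anywhere in the window, and the runs of SNHG1 and SNHG16 begin 4 and 3 bases past the start. Capitals mark the longest run of C and T.
SNHG1 (chr11:62855866-62855895, minus strand): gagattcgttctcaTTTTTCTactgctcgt
SNHG12 (chr1:28581854-28581883, minus strand): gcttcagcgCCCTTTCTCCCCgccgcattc
SNHG16 (chr17:76557754-76557783, plus strand): gggcggtctcgcgTTCTTTTCgaggtcggc
ZFAS1 (chr20:49278632-49278661, plus strand): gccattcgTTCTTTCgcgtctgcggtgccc
SNHG8 (chr4:118278752-118278781, plus strand): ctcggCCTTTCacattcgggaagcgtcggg

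The 3 box C/D snoRNAs inside ZFAS1 are shown because ZFAS1 had the lowest p of the 10 hosts and because SNORD12C had the lowest p of the snoRNAs inside them. All 3 lie in introns of the canonical ZFAS1 transcript on the plus strand (hg38), and capitals mark the box C letters TGATGA and the last box D letters CTGA.
SNORD12C (chr20:49278940-49279028): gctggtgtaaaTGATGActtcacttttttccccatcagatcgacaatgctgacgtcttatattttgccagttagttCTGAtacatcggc
SNORD12B (chr20:49280319-49280409): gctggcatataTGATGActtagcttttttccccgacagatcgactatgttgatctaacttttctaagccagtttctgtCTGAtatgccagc
SNORD12 (chr20:49280683-49280772): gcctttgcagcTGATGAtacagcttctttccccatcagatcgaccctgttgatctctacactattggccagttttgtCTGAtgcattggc
Their box C begins at base 12 in each, and the longest stretch that all 3 share is the 9 bases cagatcgac.

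PQBP1 itself, the target of the hairpin, stood at 7.18, 6.67 and 6.93 FPKM in the shNC samples and at 1.68, 1.72 and 1.44 FPKM in the shPQBP1 samples. Its level fell by 2.04 on the log2 scale (SE 0.1, limma adjusted p = 0.00154). The correlation of log2 values between samples was 0.926 to 0.969, and shNC 1 had the lowest range, 0.926 to 0.955. Over all genes, FPKM added up to 294970.3 to 318484.3 in shNC and to 278285.8 to 287422.6 in shPQBP1. The number of reads per sample is unknown, since the low FPKM values held no clear steps of whole reads. The keratins KRT8, KRT18 and KRT7 and the transcription factor PAX8 were expressed in every sample. EPCAM was at 0.79 to 1.13 FPKM, and MUC16 was at or near 0. Of the 8 epithelial and ovarian markers, PAX8 was at 12.33 to 15.7 FPKM in shNC and 18.41 to 24.08 in shPQBP1, KRT19 at 1.19 to 1.65 and 1.7 to 2.1, and WT1 at 0.63 to 0.71 and 0.31 to 0.45, without overlap. The groups of the other 5 overlapped. Among all tested genes the groups did not overlap for 34.4%, and WT1, with a mean under 1 FPKM, was not tested. The part of these markers in the host transcripts' values was not tested. The summed level of 7 markers of other cells was 12.4 to 19.4 FPKM in shNC and 16.3 to 25.4 in shPQBP1, mostly from CD68 and CDH5, and the leukocyte marker PTPRC was at 0 in every sample.

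None of the 10 host transcripts passed an adjusted p of 0.05 upon PQBP1 knockdown. In the same comparison 332 of 11413 tested genes passed (2.91%), 1.73% higher and 1.18% lower in shPQBP1. At an unadjusted p under 0.05, ZFAS1 alone passed, 10% of the members beside 23.6% of all tested genes (11.7% lower and 11.9% higher). In 8 of the 10 the fold change was below 1 (log2 below 0), beside 47.2% of all tested genes. The median log2 fold change of the members was -0.11, and that of all tested genes was 0.021. The median absolute log2 fold change was 0.144 for the members and 0.214 for all tested genes. The FPKM of the groups did not overlap for 2 of the 10 members, ZFAS1 and SNHG8, beside 34.4% of all tested genes. For 8 members the 95% interval of the fold change lay between 0.5 and 2, and for DANCR and SNHG16 it was wider. These genes were tested on log2(FPKM + 0.1) with limma, which understates the change of low genes.

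**Figure D1:**
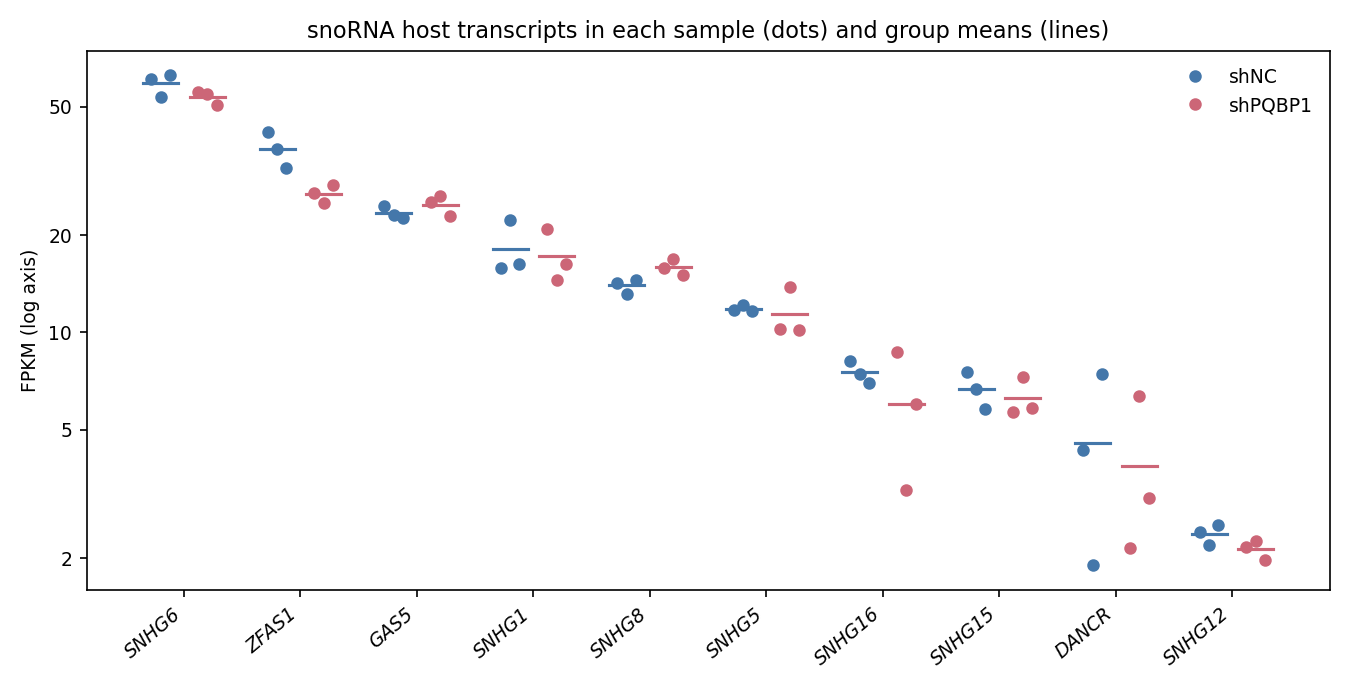
FPKM on a log axis of each host transcript, ordered by the mean in shNC, with 3 shNC samples in blue and 3 shPQBP1 samples in red as dots and the group means as lines. The blue and red dots are apart for ZFAS1 and for SNHG8 and overlap for the other 8 transcripts, and DANCR has the widest spread.

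The levels of the hosts spanned from 58.9 ± 4.84 FPKM for SNHG6 to 2.38 ± 0.167 FPKM for SNHG12 in shNC (mean ± SD, n = 3). The order in shNC was SNHG6, ZFAS1, GAS5, SNHG1, SNHG8, SNHG5, SNHG16, SNHG15, DANCR and SNHG12. The lowest 4 could not be put in order in full, because the ranges of SNHG16 and SNHG15, of SNHG15 and DANCR, and of DANCR and SNHG12 overlapped. In shPQBP1 5 of the 9 neighbouring pairs overlapped, ZFAS1 and GAS5 among them, and SNHG15 stood before SNHG16. Because FPKM is per length of the transcript models, these orders hold for the models the authors used.

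Among the hosts of box C/D snoRNAs, ZFAS1 lies antisense to the 5′ end of ZNFX1. Its level was 41.73, 36.83 and 32.36 FPKM in shNC and 27.07, 25.11 and 28.51 FPKM in shPQBP1. All 3 shPQBP1 samples lay below all 3 shNC samples, which holds for 17.1% of all tested genes in that direction. The mean changed from 37.0 ± 4.69 to 26.9 ± 1.71 FPKM (SD, n = 3), a fold of 0.731 with a 95% interval of 0.605 to 0.883. The log2 fold change of ZFAS1 was -0.45 (SE 0.11), with an unadjusted limma p of 0.00644 and an adjusted p of 0.0912. Over all alternatives its adjusted p was 0.0522 to 0.273 and its log2 fold change -0.54 to -0.36. The exact two-sided permutation test gave p = 0.1, the smallest that 3 against 3 samples allow. The strand setting of the counting is not given in the sources used here, so reads of ZFAS1 and of its opposite-strand neighbour ZNFX1 may not be told apart. ZNFX1 was at 16.51, 7.02 and 15.56 FPKM in shNC and 14.22, 16.86 and 15.52 FPKM in shPQBP1, with overlapping groups (log2 fold change 0.34, adjusted p = 0.53).

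GAS5, the growth arrest-specific transcript, is the richest host of box C/D snoRNAs here. Its level was 24.53, 23.11 and 22.54 FPKM in shNC and 25.27, 26.45 and 22.84 FPKM in shPQBP1. The groups overlapped, since shPQBP1 3 lay between shNC 2 and shNC 3. The fold change of GAS5 was 1.06 with a 95% interval of 0.92 to 1.22. SNHG1, described early as the host of U22, had 15.77, 22.24 and 16.26 FPKM in shNC and 20.85, 14.48 and 16.31 FPKM in shPQBP1. One sample in each group was high for SNHG1, shNC 2 and shPQBP1 1, and the other 4 were within 14.48 to 16.31 FPKM. The fold change of SNHG1 was 0.953 with a 95% interval of 0.695 to 1.31.

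SNHG6, the host of SNORD87 and the most abundant member, had 60.9, 53.42 and 62.49 FPKM in shNC and 55.5, 54.6 and 50.49 FPKM in shPQBP1. Its groups overlapped through shNC 2, its opposite-strand neighbour MCMDC2 was at 0.04 to 0.08 FPKM, and its fold change was 0.91 with a 95% interval of 0.786 to 1.05. SNHG5, the host of the U50 snoRNAs, had 11.69, 12.19 and 11.67 FPKM in shNC. In shPQBP1 SNHG5 had 10.21, 13.81 and 10.17 FPKM, with shPQBP1 2 above and the others below all shNC samples. Its fold change was 0.952 with a 95% interval of 0.76 to 1.19. SNHG5 shares exon sequence on its own strand with the gene listed as AL589666, at 1.48 to 5.11 FPKM, so reads of the pair could have been split between them. SNHG16, the host of the SNORD1 family, had 8.14, 7.42 and 6.99 FPKM in shNC and 8.71, 3.24 and 5.99 FPKM in shPQBP1. Here the shPQBP1 samples spread over 2.69-fold and the shNC samples over 1.16-fold. The log2 fold change of SNHG16 was -0.43 with a 95% interval of -1.25 to 0.39, and without shPQBP1 2 it was -0.05.

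Among the hosts of box H/ACA snoRNAs, SNHG8 carries SNORA24. Its level was 14.26, 13.15 and 14.51 FPKM in shNC and 15.82, 16.87 and 15.02 FPKM in shPQBP1. All 3 shPQBP1 samples lay above all 3 shNC samples, which holds for 17.3% of all tested genes in that direction. The fold change of SNHG8 was 1.14 with a 95% interval of 0.989 to 1.31, and the adjusted limma p was 0.237. The log2 fold change of SNHG8 went from 0.19 to -0.05 when each sample was corrected for the GC content and length of transcripts, and its groups then overlapped. Its canonical transcript has the lowest GC content of the members, 39.02%, beside a median of 47.5% for the tested genes. It is also the longest, at 6166 bases beside a median of 2981. The correction takes both from 1 canonical transcript per gene, while the deposited data list 6 transcripts for SNHG8. Across genes the log2 fold change followed GC content with a Spearman rho of -0.459 and length with a rho of 0.206. SNHG6, with a GC content of 40.42%, went from -0.14 to -0.28 with the same correction. The parts of GC content and length were not tested. SNHG8 overlaps the opposite-strand gene PRSS12, which was at 2.34, 2.47 and 2.34 FPKM in shNC and 2.97, 2.56 and 2.67 FPKM in shPQBP1.

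SNHG12 carries 3 box H/ACA snoRNAs and SNORD99. It was the least abundant member, with 2.41, 2.2 and 2.53 FPKM in shNC and 2.16, 2.26 and 1.98 FPKM in shPQBP1. The fold change of SNHG12 was 0.901 with a 95% interval of 0.749 to 1.08, and with the same correction the log2 fold change was -0.01. SNHG12 has the highest GC content of the members, 54.78%. Its opposite-strand neighbour TRNAU1AP was at 3.84, 3.58 and 3.34 FPKM in shNC and 2.66, 2.75 and 2.63 FPKM in shPQBP1, groups that did not overlap (log2 fold change -0.41, limma adjusted p = 0.0759).

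SNHG15 holds SNORA9, which lies in an exon of its canonical transcript, while the other 22 of the 23 snoRNA annotations of GENCODE 44 in these hosts are intronic. Its level was 7.56, 6.67 and 5.8 FPKM in shNC and 5.68, 7.29 and 5.85 FPKM in shPQBP1, with overlapping groups. The fold change of SNHG15 was 0.94 with a 95% interval of 0.739 to 1.2. DANCR, known as a differentiation antagonizing transcript and the host of SNORA26, had 4.32, 1.9 and 7.45 FPKM in shNC and 2.15, 6.36 and 3.08 FPKM in shPQBP1. Its samples spread over 3.92-fold within shNC and 2.96-fold within shPQBP1. The residual SD of DANCR on the log2 scale was 0.88, larger than that of 97.7% of the tested genes. Its log2 fold change of -0.18 had a 95% interval of -1.58 to 1.22, so that a change of 2-fold in either direction was within the interval.

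**Figure D2:**
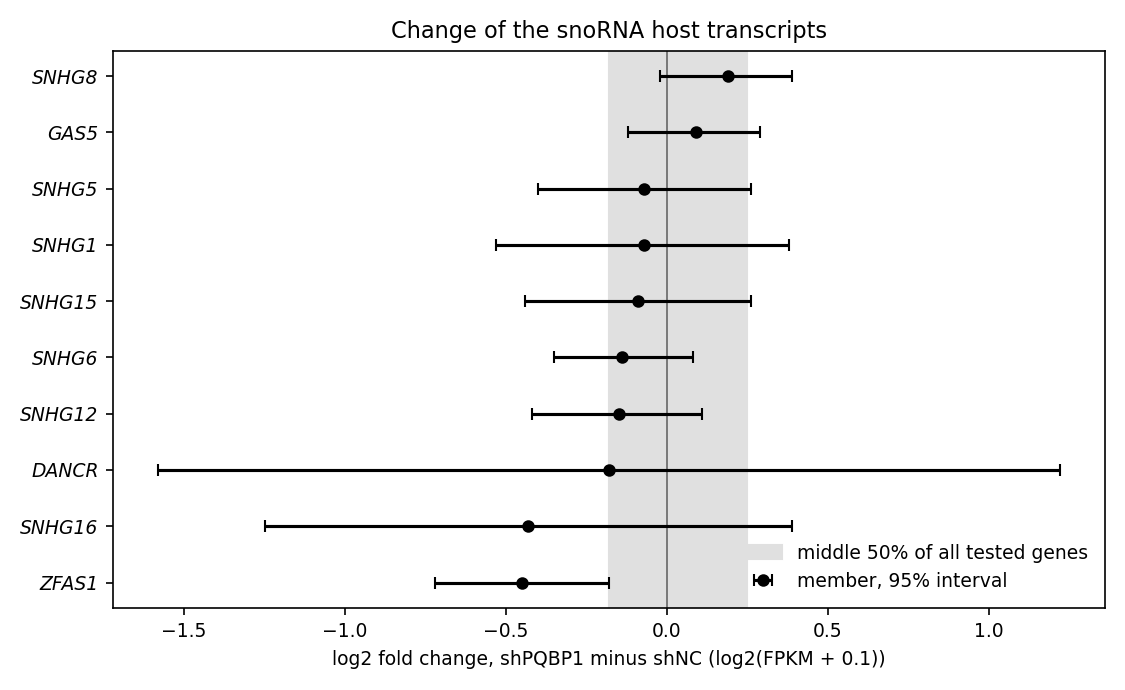
Log2 fold change, shPQBP1 minus shNC, of each host transcript with its 95% interval from limma, on log2(FPKM + 0.1). The grey band spans the middle 50% of all tested genes, -0.18 to 0.25, and the interval of ZFAS1 is the only one of the 10 that does not reach 0.

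The 10 transcripts summed to 191.3, 179.1 and 182.6 FPKM in shNC and to 173.4, 170.5 and 160.2 FPKM in shPQBP1, and all 3 shPQBP1 sums lay below the shNC sums. As a share of the FPKM of all genes the groups overlapped, at 0.06% to 0.0607% in shNC and 0.0576% to 0.0613% in shPQBP1. SNHG6, ZFAS1 and GAS5 together made up 62.2% to 66.5% of the sum in every sample. Within the sum, the share of ZFAS1 was 21.8%, 20.6% and 17.7% in shNC and 15.6%, 14.7% and 17.8% in shPQBP1. The groups overlapped, because shPQBP1 3 lay just above shNC 3 (exact two-sided permutation p = 0.2). The share of GAS5 was 12.8%, 12.9% and 12.3% in shNC and 14.6%, 15.5% and 14.3% in shPQBP1. The share of SNHG8 was 7.45%, 7.34% and 7.95% in shNC and 9.12%, 9.9% and 9.37% in shPQBP1. For GAS5 and SNHG8 the shPQBP1 samples were all above the shNC samples, and each reached the smallest exact permutation p of 0.1. Shares add up to a fixed sum, so a lower share of ZFAS1 raises the others by arithmetic. The remaining 7 shares overlapped between the groups, with exact permutation p of 0.7 to 0.9.

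**Figure D3:**
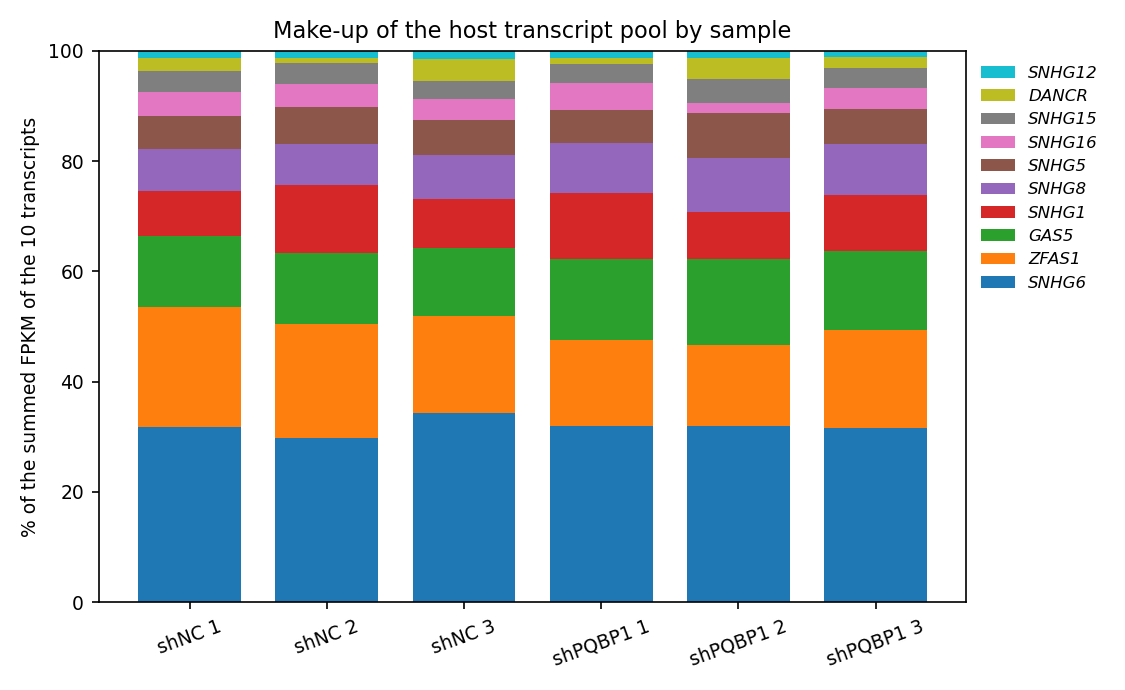
Stacked bars of the share in % of the summed FPKM of the 10 host transcripts, for 3 shNC and 3 shPQBP1 samples. SNHG6 holds 29.8% to 34.2% in every sample, and the GAS5 and SNHG8 segments are taller in each shPQBP1 sample than in each shNC sample.

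The snoRNAs inside the hosts had 23 rows, with means over the 6 samples of 0 to 16.0 FPKM. No row belonged to a snoRNA of GAS5, so its 11 snoRNAs were not followed here. SNORA16A of SNHG12 was listed under more than 1 gene ID. Of the 23 rows, 13 had a mean under 1 FPKM and 10 were tested. None of the 10 passed an adjusted p of 0.05 with limma, beside 2.91% of all tested genes. At an unadjusted p of 0.05, 1 passed, beside 23.6% of all tested genes. This was SNORD12C of ZFAS1, at 1.91, 2.11 and 2.27 FPKM in shNC and 0.61, 1.15 and 1.04 FPKM in shPQBP1. The 3 shPQBP1 samples of SNORD12C were below all shNC samples (log2 fold change -1.13, SE 0.24, unadjusted p = 0.00292, adjusted p = 0.0634), which holds for 17.1% of all tested genes. SNORD12B, in another intron of ZFAS1, had 3.05, 1.58 and 1.19 FPKM in shNC and 2.95, 1.75 and 1.52 FPKM in shPQBP1, with overlapping groups. SNORD12 was at 0.05 to 0.07 FPKM in every sample. In poly(A)-selected libraries mature snoRNAs are poorly captured, and reads on these short rows cannot be told apart from reads of unspliced host RNA. SNORA24 of SNHG8 had 5.45, 5.85 and 4.78 FPKM in shNC and 7.81, 8.24 and 5.27 FPKM in shPQBP1, which overlapped. SNORD30 of SNHG1 had 15.76, 14.99 and 15.76 FPKM in shNC and 8.82, 10.78 and 15.34 FPKM in shPQBP1. SNORA44 of SNHG12 was at 0.01 FPKM in shNC 3 and between 1.71 and 3.94 FPKM in the other samples.

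Beside the 10 hosts, 18 other noncoding hosts had a row and 14 were tested. None passed an adjusted p of 0.05 with limma. By the unadjusted p, 2 of them were higher and 3 were lower in shPQBP1, 35.7% beside 23.6% of all tested genes. SNHG19 had 16.28, 15.27 and 15.72 FPKM in shNC and 20.01, 22.53 and 18.81 FPKM in shPQBP1 (log2 fold change 0.37, adjusted p = 0.0873). SNHG18 had 2.24, 2.31 and 2.12 FPKM in shNC and 2.54, 2.77 and 3.1 FPKM in shPQBP1 (log2 fold change 0.32, adjusted p = 0.163). In the other direction, SNHG17 had 3.79, 3.88 and 4.34 FPKM in shNC and 3.04, 3.04 and 2.76 FPKM in shPQBP1 (log2 fold change -0.43, adjusted p = 0.0749). SNHG26 had 2.78, 3.1 and 3.03 FPKM in shNC and 2.15, 2.22 and 1.59 FPKM in shPQBP1 (log2 fold change -0.57, adjusted p = 0.102). For each of these 4, named by their fold changes, the groups did not overlap. Among the 14 tested, the groups were apart for 2 higher and 3 lower, beside 34.4% of all tested genes. The median log2 fold change of these 14 hosts was 0.032, beside -0.11 for the 10 members and 0.021 for all tested genes.

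**Figure D4:**
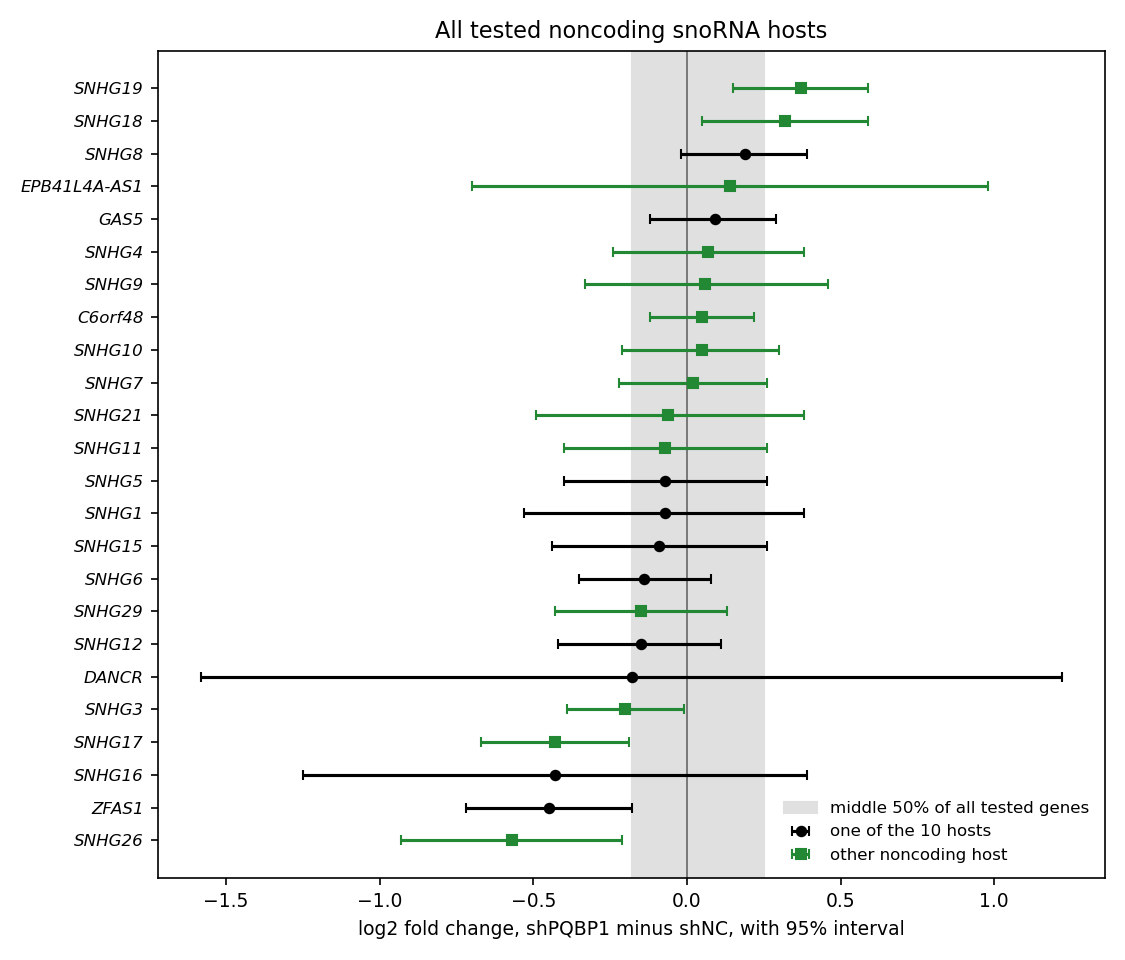
Log2 fold change with its 95% interval for the 10 host transcripts (black circles) and the 14 other tested noncoding hosts (green squares). Both kinds are mixed along the axis, from SNHG26 at -0.57 to SNHG19 at 0.37, and the grey band is the middle 50% of all tested genes.

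Protein-coding hosts of snoRNAs, such as the ribosomal protein genes, numbered 32, and all were tested. None passed an adjusted p of 0.05 with limma, and 10 passed an unadjusted p of 0.05, all lower in shPQBP1 (31.2% of the list, beside 11.7% of all tested genes lower and 11.9% higher). Their median log2 fold change was -0.13, close to that of the 10 noncoding hosts. RPS13 had 168.93, 137.3 and 134.44 FPKM in shNC and 119.02, 123.43 and 86.58 FPKM in shPQBP1 (log2 fold change -0.43, adjusted p = 0.187). RPS3 had a log2 fold change of -0.41 and overlapping groups. At the other end, TAF1D (0.40) and IPO7 (0.26) had overlapping groups and limma adjusted p of 0.344 and 0.436. Both had their lowest values in shNC 1.

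Among 7 coding transcripts known as sensitive to nonsense-mediated decay, 1 passed an adjusted p of 0.05, beside 2.91% of all tested genes. It was ATF3, a stress-response transcription factor. ATF3 fell by 0.53 on the log2 scale (SE 0.09, limma adjusted p = 0.0384), from 5.79, 5.67 and 6.06 FPKM in shNC to 4.38, 3.86 and 3.82 FPKM in shPQBP1. Without any 1 of the 6 samples, and with the GC and length correction, ATF3 no longer passed. Of the other 6, 5 had log2 fold changes below 0, as did 47.2% of all tested genes. GADD45A had 0.02 (adjusted p = 0.95), and GADD45B had -0.41 (adjusted p = 0.472). By the unadjusted p, 2 of the 7 were lower in shPQBP1, 28.6% beside 23.6% of all tested genes in either direction. The median of the 7 was -0.21, beside 0.021 for all tested genes. Several of them also respond to cell stress.

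Factors of nonsense-mediated decay numbered 17, and none passed an adjusted p of 0.05 with limma. By the unadjusted p, 1 was higher and 5 were lower in shPQBP1, 35.3% of the list beside 23.6% of all tested genes, with a median log2 fold change of -0.05. SMG6, the endonuclease of the pathway, had 3.88, 4.11 and 4.25 FPKM in shNC and 2.63, 3.14 and 3.03 FPKM in shPQBP1 (log2 fold change -0.47, adjusted p = 0.069). SMG5, which acts on phosphorylated UPF1, had 47.71, 40.65 and 40.46 FPKM in shNC and 30.78, 32.42 and 33.79 FPKM in shPQBP1 (log2 fold change -0.41, adjusted p = 0.0739). SMG1, the kinase of UPF1, had 2.41, 6.0 and 5.69 FPKM in shNC and 8.06, 6.85 and 8.06 FPKM in shPQBP1 (log2 fold change 0.79, adjusted p = 0.227). The lowest SMG1 value was in shNC 1, as was that of UPF2, at 4.08 FPKM beside 7.74 to 11.39 FPKM in the other 5 samples (log2 fold change 0.64, adjusted p = 0.252).

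In the exosome and decapping list 17 genes were tested and none passed an adjusted p of 0.05 with limma, while 2 were higher and 3 were lower in shPQBP1 by the unadjusted p (29.4% of the list, beside 23.6% of all tested genes). The 2 highest log2 fold changes of this list were those of MTREX (0.67) and the decapping enzyme DCP2 (0.63). MTREX was lowest in shNC 1, at 6.75 FPKM beside 12.33 to 19.08 FPKM in the other samples, and its groups overlapped. The 2 lowest log2 fold changes were those of DCP1A (-0.35) and EXOSC4 (-0.28). Proteins of the snoRNA particle and its assembly numbered 15, with no gene past an adjusted p of 0.05 and 3 lower at an unadjusted p under 0.05, 20% beside 23.6% of all tested genes. Among them ZNHIT3 (-0.57), an assembly factor, and RUVBL2 (-0.36) had groups that did not overlap, and NOP58 (0.34) and ZNHIT6 (0.27) had their lowest values in shNC 1. Of the 15, the groups were apart for 6 lower and 1 higher, beside 17.1% lower and 17.3% higher of all tested genes. Of 12 lncRNA genes that are not known as snoRNA hosts 8 were tested. Among these, OIP5-AS1 rose by 0.53 on the log2 scale (SE 0.08, limma adjusted p = 0.0313). It alone passed, at an adjusted and at an unadjusted p of 0.05, 12.5% beside 2.91% and 23.6% of all tested genes. OIP5-AS1 had 4.15, 4.48 and 4.58 FPKM in shNC and 6.55, 6.4 and 6.18 FPKM in shPQBP1, and it passed without shNC 1 but not without any of the other 5 samples. LINC00472 (0.78), MIR22HG (-0.35) and CYTOR (-0.27) did not pass, with limma adjusted p of 0.236, 0.426 and 0.227. LINC00472 was lowest in shNC 1, at 0.49 FPKM beside 1.23 to 1.88 FPKM in the other samples.

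The mean profile of the 10 hosts, each centred on its own mean over the 6 samples, was 0.12, -0.04 and 0.11 in shNC and -0.06, -0.01 and -0.13 in shPQBP1 on the log2 scale. SNHG12 and SNHG6 followed this mean most closely, with Pearson r of 0.97 and 0.96 over 6 samples, while SNHG1 and SNHG8 had r of -0.34 and -0.22. Each member is itself part of the mean, so these r are not independent of it. The 5 other tested genes most like this mean were PARK7 (r = 0.999), SURF6 (0.997), PLD6 (0.995), CD44 (0.995) and the gene listed as AC246787 (0.992). They were picked as the highest among all tested genes, over the same 6 libraries. PARK7 had 68.9, 58.52 and 67.16 FPKM in shNC and 56.91, 59.85 and 52.84 FPKM in shPQBP1, with overlapping groups and a log2 fold change of -0.2 (limma adjusted p = 0.251).

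**Figure D5:**
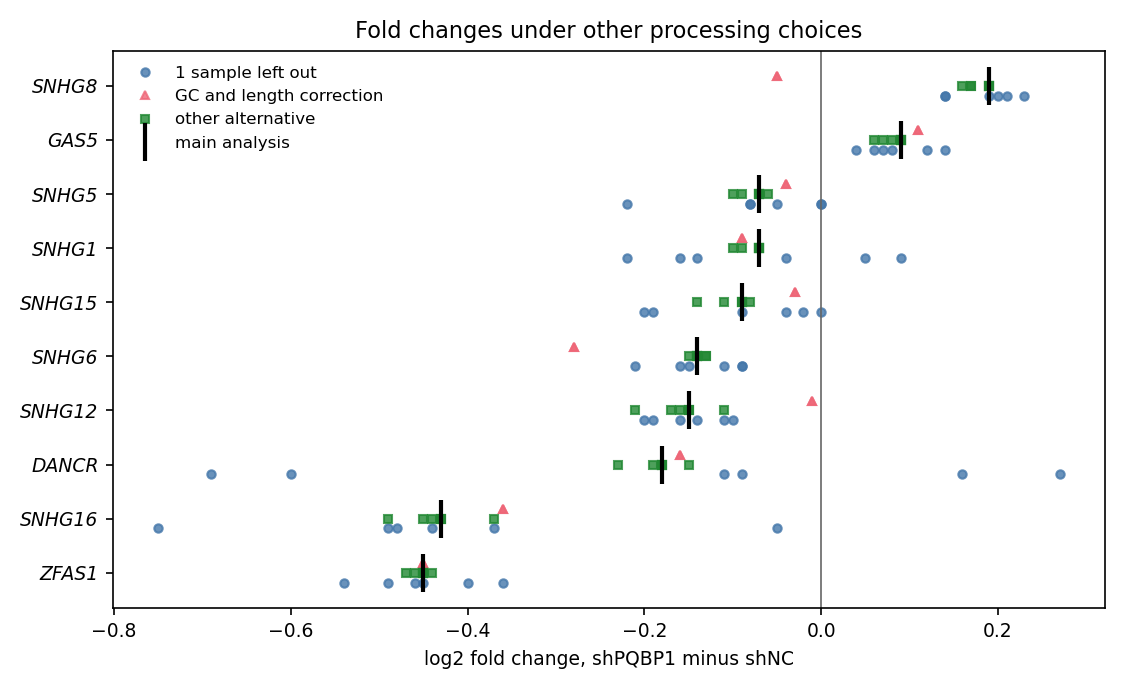
Log2 fold change, shPQBP1 minus shNC, of each host transcript in the main analysis (black bar), with 1 sample left out (blue circles), with the correction for GC content and length, with or without the sample number as a block (red triangles), and under the other alternatives (green squares). ZFAS1 lies between -0.54 and -0.36 throughout, SNHG8 falls to -0.05 with the correction, and DANCR and SNHG16 move most when 1 sample is left out.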

How the data were processed

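Reads were aligned by the authors to hg38 using HISAT2 (2.2.0), sorted with SAMtools (1.9), assembled with StringTie (1.3.0) and compared with edgeR, per the labels and the study's methods. Their deposited FPKM values, rounded to 2 decimals, were used as given. The deposited table also holds the authors' own fold changes, p-values and q-values, which were not used. The annotation release and strand setting are not given in the sources used here. Read depth is unknown.

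The 11413 of 32679 genes whose FPKM averaged 1 or more in the 6 samples were compared on log2(FPKM + 0.1). The two-sided test was limma's (3.58.1, R 4.3.3), using lmFit, then eBayes with trend, and p-values were adjusted by Benjamini-Hochberg over these genes. FPKM values are not counts, so no count test was run. Exact permutation tests used scipy (1.17.1, Python 3.11.15). The steps were tested on simulated data.

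The 10 members and all gene lists were chosen with earlier results of these data known. From each list up to 2 genes with the largest positive and up to 2 with the largest negative log2 fold change, plus genes past an adjusted p of 0.05, were named, and the 5 genes most like the members' mean. Alternatives were 2 filters, pseudocounts of 1 and 0.01, 2 scalings, no trend, the sample number as a block, a GC and length correction (GENCODE 44, natural splines with 5 degrees of freedom), with and without the block, and each sample left out.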

Additional observations from a re-analysis of the deposited data

How the results depend on the processing

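No member passed an adjusted p of 0.05 in the main analysis or in any of the 16 alternatives, and at a mean FPKM of at least 10 only 6 members were tested. The median log2 fold change of the members stayed below 0, between -0.171 and -0.0668. ZFAS1 passed an unadjusted p of 0.05 in all of them, and SNHG16 joined it without shPQBP1 1, so the count ranged from 1 to 2 with a sample left out. The number of members with groups apart was 1 after the GC and length correction (ZFAS1), beside 35.9% of all tested genes, and 2 to 4 with a sample left out, beside 40.6% to 47.4%. It was 4 without shPQBP1 2 (SNHG5, SNHG8, SNHG12 and ZFAS1), beside 47.4% of all tested genes, and 4 without shNC 2 (SNHG6, SNHG8, SNHG12 and ZFAS1), beside 47.3%. The direction turned for SNHG8 (-0.05 with the correction, -0.05 with correction and block). With a sample left out it turned or reached 0.00 for SNHG1 (-0.22 to 0.09), SNHG5 (-0.22 to 0.00), SNHG15 (-0.2 to 0.00) and DANCR (-0.69 to 0.27). The cause was not tested.

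After the GC and length correction 938 of 11385 tested genes passed, beside 332 of 11413 in the main analysis. Among the 938 were 1 other noncoding host (SNHG19), 1 coding host (RPS20) and 3 decay factors (SMG5, SMG8 and EIF4A3). They also held 2 exosome and decapping genes (DCP1A and EXOSC9) and, as in the main analysis, OIP5-AS1 of the other lncRNA genes. With this correction 0 of the decay-sensitive coding genes passed. RPS20, SMG8, EIF4A3 and EXOSC9 are named here after their values were seen. With the correction and the block 0 of the decay-sensitive coding genes and 0 of the other lncRNA genes passed. With a sample left out, 0 decay-sensitive coding genes and 0 to 1 other lncRNA genes passed.

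The same sample numbers did not vary together between the groups (r of -0.186, -0.138 and -0.0114), so they were not taken as pairs. With the replicate block 0 of all tested genes passed, beside 332 without it, and 21 passed with block and correction, beside 938 with the correction alone. With the block PQBP1 stayed at -2.04 (limma adjusted p = 0.0686), and with block and correction at -1.86 (adjusted p = 0.0543). With a sample left out 30 to 466 genes passed, the most without shNC 1. The spread within groups, not a known read depth, sets the precision of these values.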
